A study of Mus musculus with 12 samples.

Results

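The genes described here encode the subunits of retromer and of the GARP and EARP complexes in mouse: Vps26a, Vps26b, Vps29 and Vps35 for retromer, and Vps50, Vps51, Vps52, Vps53 and Vps54 for GARP and EARP. They are 9 of the 21887 protein-coding genes on the assembled chromosomes. The genes were chosen by complex, with the peak calls and fold enrichments of the lists below in view, and their peaks were chosen by position: the summit had to lie inside the gene or within 1000 bp of either end of its annotated span. The calls and fold enrichments are therefore given as a description, with no test. The data are peaks of chromatin immunoprecipitation followed by sequencing (ChIP-seq) for USF2, an E-box binding transcription factor, in mouse embryonic fibroblasts (MEFs), and the comparison asks where USF2 sits when glucose is withdrawn. The cells were labelled wild type in both conditions, with MEF given as the cell line. They were kept in normal culture or starved of glucose, with 2 libraries per condition out of 12 samples in the series. The length of the starvation, and whether the libraries came from separate cultures or embryos, are not given in the sources used here. A peak list of a transcription factor holds no expression values, so the labelled cell type was not checked against marker genes, and binding says nothing by itself about the level of a transcript.

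Retromer is a coat-like assembly on endosomes that retrieves membrane proteins from the path to the lysosome and returns them to the trans-Golgi network or the cell surface. Its core joins VPS35, VPS29 and either VPS26A or VPS26B. GARP tethers vesicles that come from endosomes to the trans-Golgi network, where they deliver receptors such as those that sort lysosomal enzymes. EARP shares VPS51, VPS52 and VPS53 with GARP, carries VPS50 in place of VPS54, and acts on recycling endosomes.

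The 4 USF2 lists held 1645 and 2124 peaks for normal replicates 1 and 2, and 825 and 1178 for starved replicates 1 and 2 on the assembled chromosomes. The narrowest peak was 152 bp in the normal and 306 bp in the starved lists, so calling width differed with condition. The reads behind a peak were recovered from its fold enrichment, the ratio of the read pileup at the summit to the local background after 1 is added to each, and its p-value. Pileups of the paired lists were closer to each other than counts of independent libraries would be. Over the 29 regions called in both normal lists with at least 60 reads in sum, the squared difference over the sum averaged 0.251, where independent Poisson counts give an average of 1 (chi-square lower tail, p = 1.41e-05). The 23 such regions of the starved pair averaged 0.290 (chi-square lower tail, p = 0.000369). Pairs of lists across conditions averaged 2.55 to 3.65. The lists of a condition thus differed by less than sampling noise and were counted as 1 sample. A call in both lists of a condition is therefore not a replicate check. No SD is given as a replicate spread, and no test between conditions was possible. Fold enrichments of the 2 conditions are set side by side without a ratio, since depth and calling width differ, and a missing peak means that the caller's threshold was not reached.

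USF2 peaks lay at 5 of the 9 genes. Vps26a and Vps50 had a peak in all 4 lists, where 1.14% of all protein-coding genes had one at a gene end. Vps35 and Vps51 had a peak in both normal lists and in neither starved list, a pattern found at 0.850% of protein-coding genes. Vps52 had a peak in normal 2 and in starved 1 alone. In sum, 4 of the 9 genes were called in both normal lists (2.20% of protein-coding genes) and 2 in both starved lists (1.79%). Across any list the count was 5 of 9, against 4.03% of protein-coding genes at gene ends and 10.4% when peaks inside genes are added. Since the genes were chosen with these calls known, nothing is read from the distance between those shares. Vps26b, Vps29, Vps53 and Vps54 had no peak under the rule in any list.

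**Figure D1:**
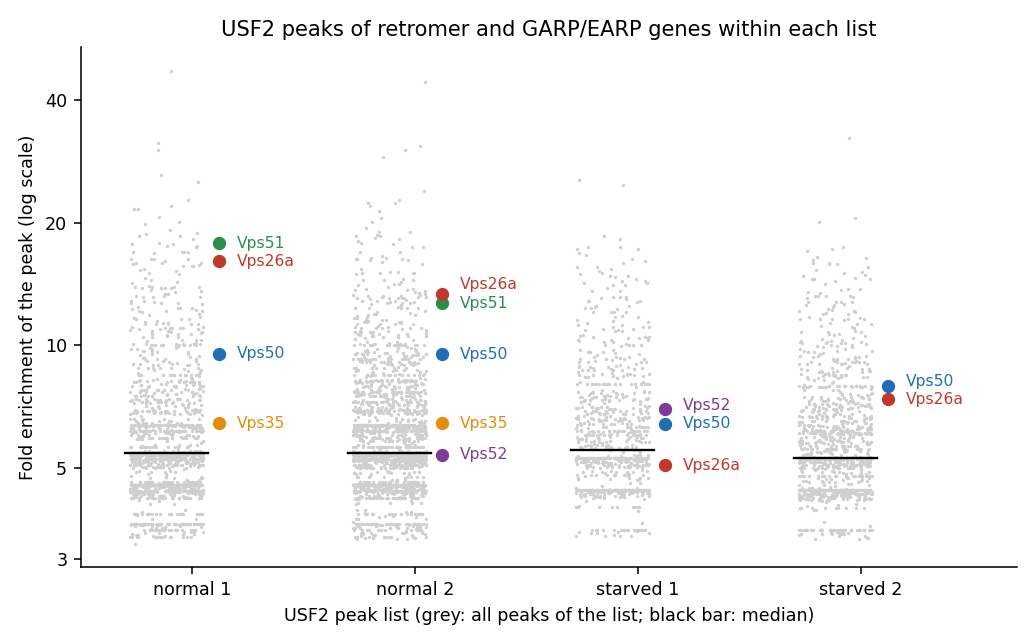
Fold enrichment (log axis) of every USF2 peak in each of the 4 lists in grey, with the median as a black bar and the peaks at retromer and GARP/EARP genes as coloured points. In normal 1 Vps51 and Vps26a stand at 17.8 and 16.1 against a median of 5.46, while in starved 1 the Vps26a peak (5.09) lies below the median of 5.54.

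USF proteins are known to bind the E-box core CACGTG, and the promoter sequences of Vps26a and Vps50 contained it. RefSeq promoter windows (GRCm38.p6, 250 bases before to 50 after an annotated start) were matched for 7 of the 9 genes, giving 10 windows. Vps35 and Vps51 were not among them. The first windows printed are those of the pair of genes called in all 4 lists, on the strand of the gene, with each CACGTG in capitals. The Vps26a window is chr10:62486756-62487055 on the minus strand and the Vps50 window chr6:3498143-3498442 on the plus strand.

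Vps26a: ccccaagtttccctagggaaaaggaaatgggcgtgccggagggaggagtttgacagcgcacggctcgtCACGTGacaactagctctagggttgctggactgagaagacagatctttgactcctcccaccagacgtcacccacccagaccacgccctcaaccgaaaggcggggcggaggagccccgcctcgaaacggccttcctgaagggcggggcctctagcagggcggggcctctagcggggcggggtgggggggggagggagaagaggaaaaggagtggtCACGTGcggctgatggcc
Vps50: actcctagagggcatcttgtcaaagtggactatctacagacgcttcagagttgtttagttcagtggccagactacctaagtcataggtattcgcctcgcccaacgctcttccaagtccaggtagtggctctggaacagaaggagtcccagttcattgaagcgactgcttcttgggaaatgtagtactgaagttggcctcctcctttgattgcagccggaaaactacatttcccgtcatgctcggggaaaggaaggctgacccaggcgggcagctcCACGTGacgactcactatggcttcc

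The Vps26a window held 2 cores, and a second annotated start of the gene has a window with 2 cores, of which 1 is shared, so the gene had 3 distinct cores. Vps50 had 1. The windows of Vps26b, Vps29, Vps53, Vps54 and Vps52 held none. CACGTG reads the same on both strands, and 7.15% of all 32851 promoter windows contained it. It was in 91.1% of the 180 windows that hold the summit of a region of all 4 lists, and in 40.6% of the 133 windows with a region of both normal lists and neither starved list, with some windows overlapping.

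The letters CACATG and their reverse complement CATGTG, a related E-box, were in none of the 3 Vps52 windows. Vps26b had 1 such site (14.2% of all windows had CACATG or CATGTG), and Vps29, Vps53 and Vps54 had none. The looser form CANNTG, which includes both of the above, was in 72.3% of all windows. Vps26b held 4 matches, Vps29 held 1, and Vps53 and Vps54 held 0. The 3 Vps52 windows, which overlap in part, held 0, 1 and 2. A match describes the letters in a window, and a missing match says nothing about the factor.

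The bases around each core were set beside those of functionally linked genes, because the flanks can differ where the core does not. The lines show 12 bases on either side of the core, on the strand of the gene.

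Vps26a, chr10:62486732-62486761: atggcctacggtCACGTGacgggcggcggg
Vps26a, chr10:62486756-62486785: aaaaggagtggtCACGTGcggctgatggcc
Vps26a, chr10:62486970-62486999: cgcacggctcgtCACGTGacaactagctct
Vps50, chr6:3498406-3498435: ggcgggcagctcCACGTGacgactcactat
Igf2r, chr17:12769737-12769766: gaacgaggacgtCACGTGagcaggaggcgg
Stx6, chr1:155158606-155158635: ggcgatctgggtCACGTGagcctgagtgcg
Washc2, chr6:116208000-116208029: tgcgccccaggtCACGTGaggacaccatca
Washc4, chr10:83543947-83543976: gaagccggaagtCACGTGccgtgacagcgg
Ccdc22, chrX:7605377-7605406: ttcctcgcgcggCACGTGactctctgtcct

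The longer palindrome TCACGTGA was present at 2 of the 3 Vps26a cores, at the outermost ones, and not at the core of Vps50. Of the 11 distinct cores in the windows of linked genes, 9 had it, and those of Ccdc22 and Washc4 did not. It was in 0.974% of all promoter windows and in 46.7% of those with the summit of a region of all 4 lists.

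Vps26a encodes the arrestin-like subunit of retromer that contacts sorting nexins and cargo, and it carried the deepest peak of the 9 genes. Its gene spans chr10:62454843-62486805 on the minus strand, and the merged region (chr10:62486279-62487099) lay across its start. Fold enrichment was 16.1 in normal 1 and 13.4 in normal 2, and 5.09 in starved 1 and 7.38 in starved 2. The −log10 q values were 49.2, 39.3, 8.60 and 13.0 in the same order. The normal values stood well above the medians of their lists (5.46 in both), whereas the starved values lay on either side of theirs (5.54 and 5.30).

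The place of the Vps26a peak in the lists depended on the measure. By fold enrichment it ranked 34 of 1645, 62 of 2124, 563 of 825 and 220 of 1178 in normal 1, normal 2, starved 1 and starved 2. By summit pileup it ranked 2, 3, 40 and 40, so few peaks in any list had more reads. The pileup was 58 reads in normal 1 (exact 95% Poisson interval 44.0 to 75.0, counting error only) and 52 in normal 2 (38.8 to 68.2). It was 28 in starved 1 (18.6 to 40.5) and 27 in starved 2 (17.8 to 39.3). The local background at Vps26a was 2.67 and 2.97 reads for the normal libraries, then 4.69 and 2.80 after starvation, against a lowest background of 0.0979 in each normal list and of 0.131 and 0.133 in the starved lists. The background in starved 1 was thus the highest of the 4, and its fold enrichment the lowest. As fold enrichment is computed from pileup and background, these are not separate observations. The reason for the higher background was not tested.

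The Vps26a summits fell within 46 bp of each other over the 4 lists. The normal summits were 48 and 52 bp downstream of the outer annotated start and lay between the pair of neighbouring cores, 10.5 and 6.5 bp from the nearest core centre. Those of the starved lists were 6 and 9 bp downstream of that start and 28.5 and 25.5 bp from the nearest core. Both normal peaks ended at the same coordinate, and 44.7% of all regions common to those lists had such a matching edge. No other gene in the table had an end within 1000 bp of these summits. The nearest summit outside the rule was 4822 bp beyond the far end of the gene, in normal 2 alone (fold enrichment 6.35).

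Vps35 encodes the elongated scaffold on which the other retromer subunits assemble. Its gene spans chr8:85260385-85299517, and a peak covered its upper end in both normal lists (region chr8:85299444-85299619). Fold enrichment was 6.44 in both lists, with −log10 q of 6.35 and 6.52, and neither starved list had a peak. The summit was at the same base in both lists, 5 bp outside the gene. It was called on 15 reads in each (exact 95% interval 8.40 to 24.7) over a background of 1.48. The peak ranked 403 of 1645 and 595 of 2124 by fold enrichment, in the upper part but far from the top of the lists. By summit pileup it ranked 207 and 242 in normal 1 and normal 2. Orc6, a subunit of the origin recognition complex, begins its annotated span 115 bp away, 110 bp from the summit, so the peak cannot be assigned to either gene.

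The other retromer subunits had no peak. Vps26b, the paralogue of Vps26a, spans chr9:27004502-27030094, and the closest summit in any list was 241746 bp away. Vps29, which encodes the small subunit bound to the end of VPS35, spans chr5:122354328-122364984, with the closest summit 84896 bp away. Retromer thus had a peak at the start of Vps26a but none near Vps26b, the genes of its alternative subunits.

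Among the genes shared by GARP and EARP, Vps51 had the highest fold enrichment, 17.8 in normal 1 and 12.7 in normal 2. VPS51 is a subunit common to both tethers and binds the SNARE protein STX6. The −log10 q values were 29.1 and 19.8, and neither starved list had a peak. In normal 1 it ranked 19 of 1645, above Vps26a, and in normal 2 it ranked 84 of 2124, below it. The region (chr19:6077155-6077396) covered the upper end of the gene (chr19:6067842-6077187), with summits 97 and 70 bp outside it. Tmem262 begins 688 bp from that end, 591 and 618 bp from the summits, and so the region also counts for that gene. The call rested on 24 reads (exact 95% interval 15.4 to 35.7) and 23 reads (14.6 to 34.5), over backgrounds of 0.406 and 0.890. The difference between its fold enrichments of 17.8 and 12.7 thus comes with nearly equal pileups and unequal backgrounds. The smallest pileup of any called peak was 3 reads in each list, and the number of reads at Vps51 in the starved libraries is not known from the lists.

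Vps52, another shared subunit of GARP and EARP, had the least certain calls. It was called in normal 2 (fold enrichment 5.39, −log10 q 4.61) and in starved 1 (6.97 and 6.31), and in neither partner list. The normal 2 value is just below the list's median of 5.46 and ranked 1273 of 2124. The starved 1 value ranked 232 of 825. They rested on 14 reads (exact 95% interval 7.65 to 23.5) and 12 reads (6.20 to 21.0). The 2 summits were 108 bp apart, 41 and 149 bp inside the gene (chr17:33955779-33967038). The summit in starved 1 was the one farthest from a gene end among all 14 peaks at these genes. Rps18, a gene of the small ribosomal subunit, ends its span 114 bp from Vps52, and both summits were also within 1000 bp of it.

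Vps53, the remaining shared subunit (chr11:76046226-76179638), had its closest summit 225747 bp away. Vps54, the subunit that defines GARP (chr11:21239032-21321133), had its closest summit 915528 bp away. Vps50, which takes the place of Vps54 in EARP, was called in all lists. Its fold enrichment was 9.55 in normal 1, 9.51 in normal 2, 6.44 in starved 1 and 7.94 in starved 2. The −log10 q values were 10.7, 10.8, 5.23 and 8.14. All of these fold enrichments lay above the median of their list, and the 2 normal values were nearly the same.

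The Vps50 region (chr6:3498275-3498703) covered the start of the gene (chr6:3498393-3603531, plus strand). Its pileup was 11 reads in normal 1, normal 2 and starved 1 (exact 95% interval 5.49 to 19.7) and 13 in starved 2 (6.92 to 22.2). The normal backgrounds were 0.257 and 0.262, and the starved ones 0.864 and 0.762. The pileups stand side by side only, since depth and calling width differ between the conditions. Fold enrichment is computed from pileup and background, so its relation to the background is not a separate observation. The reason for the starved values was not tested. The fold enrichment ranked 170 of 1645, 201 of 2124, 289 of 825 and 178 of 1178. The summit lay 22 bp downstream of the start in normal 1, 24 bp upstream in normal 2, and 28 and 132 bp downstream in starved 1 and 2. The single core began 25 bp downstream of the start, and its centre was 5.5, 51.5, 0.5 and 104.5 bp from these summits. Hepacam2 ends its annotated span 71 bp from Vps50, so the region lies at the ends of both genes.

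**Figure D2:**
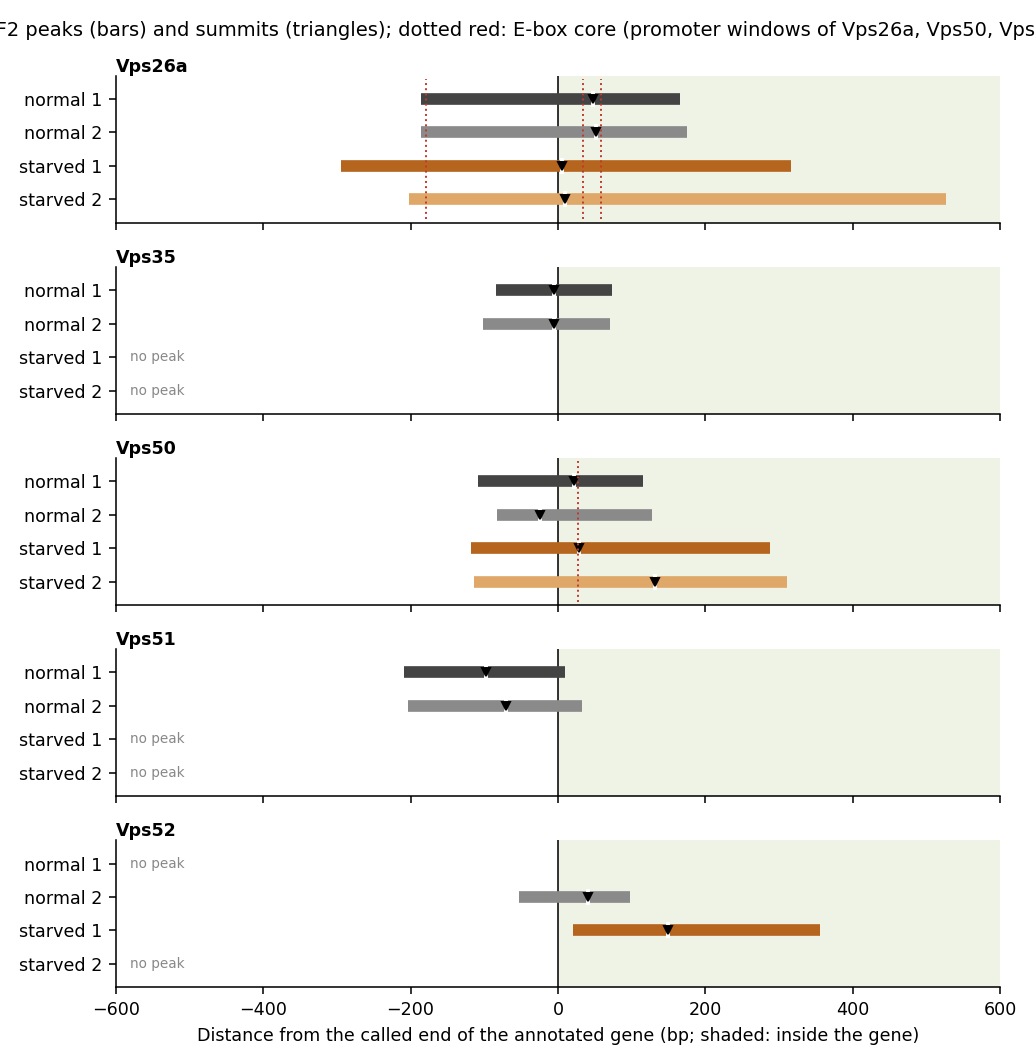
Peaks (bars) and summits (triangles) of the 4 USF2 lists at the 5 genes, by distance in bp from the gene end nearest to them, with the inside of the gene shaded. The Vps26a peaks span the start and all 3 E-box cores (dotted red), the Vps51 summits lie 97 and 70 bp outside the gene, and the 2 Vps52 summits are 108 bp apart.

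The peaks at these genes lay close to the gene ends. The rule admitted summits up to 1000 bp from an end, and the farthest was 149 bp away. Over all protein-coding genes, 882 were called in any list at 1000 bp and 724 at 500 bp. The share of all gene-end summits within 149 bp was not computed, so closeness to an end is not read as particular to these genes. Beyond the rule, the closest summits were those at 4822 bp from Vps26a, 13248 bp from Vps51 and 26352 bp from Vps52. No peak lay inside any of the 9 genes away from its ends. Over all protein-coding genes, the share called in any list was 4.03% at gene ends and 10.4% with peaks inside genes added. With 9 genes, nothing is read from the absence. The regions at Vps35, Vps50, Vps51 and Vps52 had the end of a second protein-coding gene within 1000 bp of the summit. Vps26b, Vps29, Vps53 and Vps54, which had no peak, also have a protein-coding neighbour close to one end (Ncapd3 at 71 bp, Rad9b at 58 bp, Tlcd3a at 33 bp and Ugp2 at 7 bp). At Vps54, on the plus strand, that is the end away from the start, whose nearest protein-coding neighbour is 82094 bp away. The share of all genes with a close neighbour was not computed, so nothing is read from these distances.

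**Figure D3:**
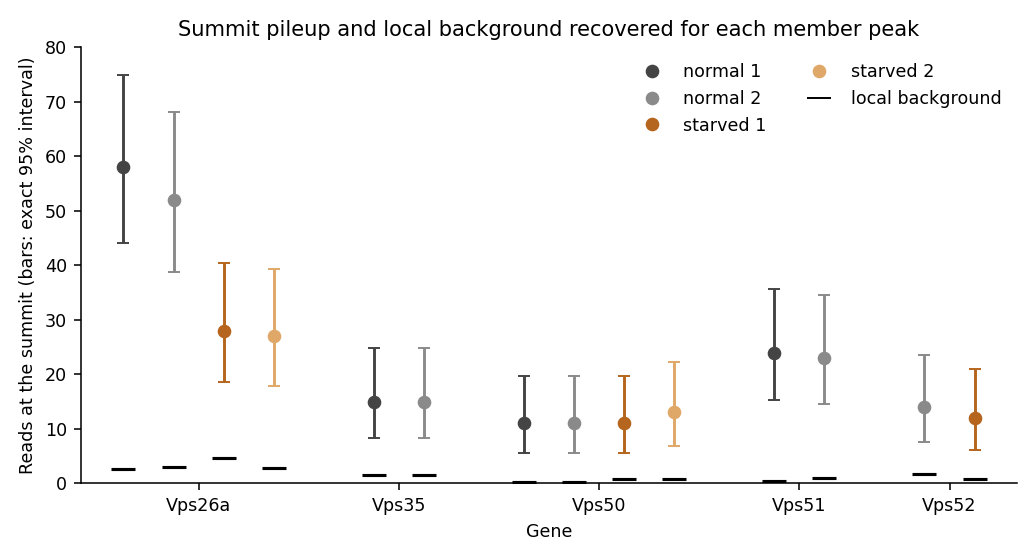
Reads at the summit (points, with exact 95% Poisson intervals for counting error) and local background (black bars) for each peak at the 5 genes, coloured by list. Vps26a stands at 58 and 52 normal reads against 28 and 27 after starvation, while the Vps50 peaks have 11 to 13 reads in all 4 lists. Depth and calling width differ between the conditions.

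The genes that work with these complexes were counted in 9 lists of 84 genes in all, chosen with earlier results of these data known. Of the 84, 12 had a region at a gene end in both normal lists (2.20% of all protein-coding genes) and 11 in both starved lists (1.79%). As the lists were chosen with results known, nothing is read from the distance to those shares. None of the 12 sorting nexins and retromer regulators was called in both lists of a condition. Dnajc13, an endosomal chaperone partner, was called in normal 2 (7.66) and starved 2 (4.42); it is named after its values were seen. Of 5 genes of retriever, a retromer-like complex, and of its partners, Ccdc22 was called in both starved lists (6.44 and 6.81) and in neither normal list. The WASH complex, which builds actin on retromer-coated endosomes, had 4 of 5 genes in both normal and 3 in both starved lists.

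Washc2, whose product binds VPS35, had a fold enrichment of 25.1 in normal 1, 17.5 in normal 2, 16.9 in starved 1 and 17.0 in starved 2. Values of other genes follow that sequence of lists. Washc5 had 20.7, 18.6, 15.6 and 17.5, and its region is shared with Nsmce2. Washc4 had 6.28, 6.28, 8.05 and 7.13. Washc1 had 6.90 and 5.65 in the normal lists and 6.73 in starved 2. In each list Washc2 and Washc5 thus had higher fold enrichments than any of the 9 retromer, GARP and EARP genes. Of 14 sorting receptors and other cargo, Igf2r, the large mannose 6-phosphate receptor that retromer retrieves, was the gene called at an end (16.3, 13.6, 13.6 and 12.8).

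Of 19 partners of GARP and EARP, 3 were called, and each in all 4 lists (1.14% of all protein-coding genes). The partners were chosen with results known, so nothing is read from the distance to that share. They encode SNARE proteins that fuse vesicles with the trans-Golgi network. Stx16 had a fold enrichment of 17.7 in each normal list, but 5.17 and 7.0 after starvation. Stx6 had 7.25, 7.32, 6.85 and 8.81, and Vti1a had 7.55 in each normal list and 12.4 and 12.3 after starvation. Stx16 was called on 22 reads in each normal list and on 8 and 9 in the starved lists, and Vti1a on 12 in each normal list and on 16 and 17 in the starved lists. These values stand side by side only, since depth, list length and calling width differ between the conditions. The Vti1a region is shared with Zdhhc6.

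The other tethering complexes that are structural relatives of GARP were counted at gene ends in the same way. COG (8 genes) and NRZ (3 genes) had none there, and of 8 exocyst genes Exoc1, also named after its value was seen, was called in starved 2 alone (5.15). Peaks inside genes and away from their ends are not in these counts. In any list, 4.03% of all protein-coding genes were called at a gene end, so nothing is read from the counts. Of 10 genes of HOPS, CORVET and CHEVI, tethers of late and early endosomes, 4 were called in both normal and 3 in both starved lists. The shares of all protein-coding genes were 2.20% and 1.79%, and nothing is read from the distance to them. Vps33a had 14.6, 21.3, 14.8 and 9.72, Vps11 had 8.46, 8.86, 6.60 and 5.76, and Vps8 had 6.56, 6.56, 6.85 and 7.05. Vps16 had 6.28 in both normal lists and no starved peak, as at Vps35, and its region is shared with Pced1a. Of the 13 related genes called in both lists of a condition, 11 had promoter windows and 8 of these contained CACGTG, with summits 0.5 to 98.5 bp from the nearest core centre (median 20.5 over 27 peaks). The windows of Stx16, Vti1a and Vps8 contained none.

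**Figure D4:**
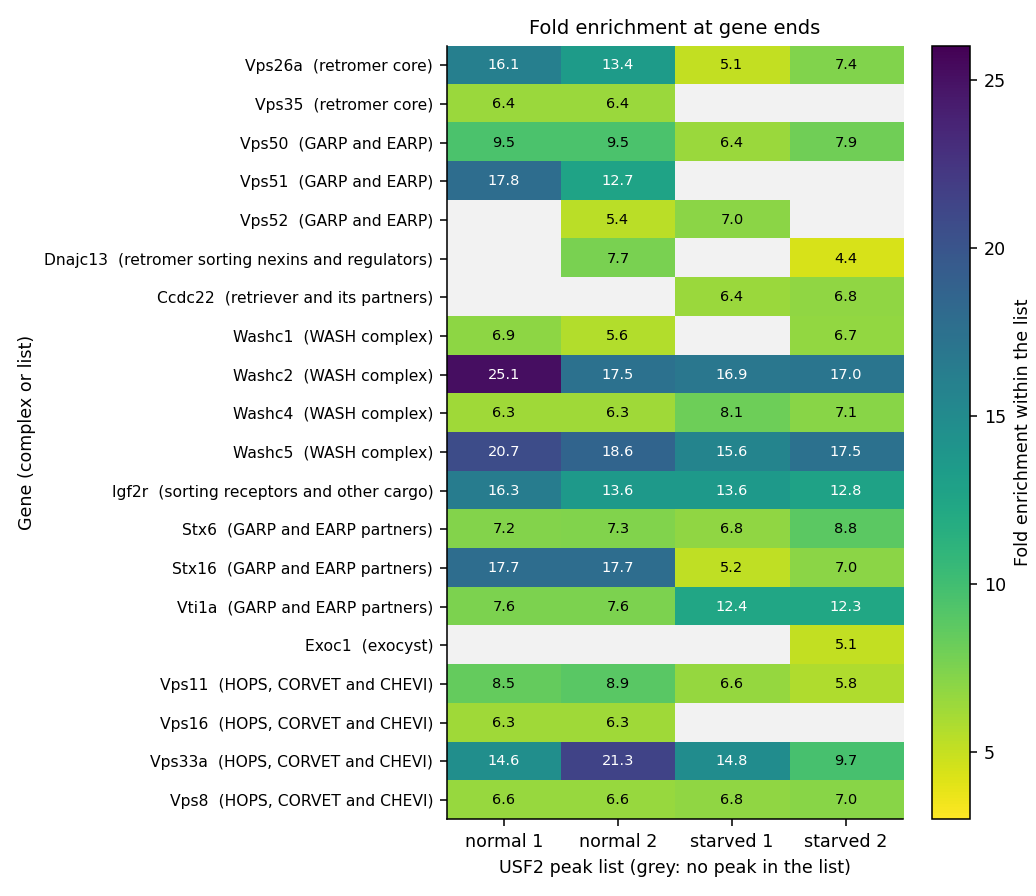
Fold enrichment at gene ends in each USF2 list for retromer, GARP and EARP genes and for related genes with a peak, with grey cells where a list has none. The grey cells of Vps35 and Vps51 in both starved lists recur at Vps16, while Washc2 has 16.9 to 25.1 in all 4 lists.

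The genes whose place in the lists was most like that of each called gene were found among gene-end regions with the same calls, by the mean absolute difference in rank by fold enrichment, as a percentage of the list. Among 204 such regions in all 4 lists, Vps26a was closest to Stx16 (2.28 percentage points over 4 lists), followed by Ap5z1 (4.01). For Vps50 they were Zfp207 (1.74), Drg2 (3.40) and Mtss2 (3.43). Among 154 regions of the normal lists alone, Vps35 was closest to Klhl20 (0.401 over 2 lists), Cabp7 (0.465) and Klhdc2 (0.809), and Vps51 to Fra10ac1 (1.26), Commd4 (1.35) and Camk2d (1.69). The closeness describes ranks in these lists and nothing else about the genes.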

How the data were processed

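USF2 peak lists of 4 libraries were analysed. Per the submitters' processing notes, Bowtie2 2.5.1, MACS2 2.2.7.1, deepTools 3.5.1 and the build GRCm38 were used; parameters and the use of inputs as control are not given in the sources used here. Each library has its own list. The authors deposited for each peak a fold enrichment (a ratio), a −log10 p, a −log10 q and a score, which equals −log10 q multiplied by 10 without its decimals. From the deposited p-value and fold, the whole summit pileup and the background were recovered (largest misfit 0.000265 on the −log10 scale) and checked on simulated peaks, of which 100% of 1258 came back.

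Peaks that overlapped by at least 1 bp were merged into 3804 regions, with the summit of the peak of highest −log10 q. A region counted for a gene when this summit lay within 1000 bp of either end of its span in the RefSeq gene table of GRCm38.p6, which has no exons, so exonic or intronic positions are not given. On planted peaks 99.3% of 281 genes had their calls returned. All 9 genes are named with every peak, related genes where both lists of a condition had a region, neighbours that share a summit, and the 3 genes closest in rank to each gene called in both lists of a condition, of which 1 is not reported here. Members and gene lists were chosen with earlier results of these data known. Motifs were counted on both strands in RefSeq promoter windows. The 8-letter motif was added after the data were seen. Inputs and H3K27ac libraries were not analysed here. Alternatives varied the q threshold, list length, overlap, distance, start sites and left-out lists. Python 3.11.15, pandas 2.3.3, SciPy 1.17.1 and matplotlib 3.10.9 were used.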

Additional observations from a re-analysis of the deposited data

How the results depend on the processing

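The counts of the 9 genes kept within 1.5 times of their value in all 55 recomputations, a limit that a change from 2 to 3 still meets. Without each list in turn, the count in both normal lists was 4 to 5 and in both starved lists 2 to 3, the added gene being Vps52, while all 4 lists gave 2, the normal lists without a starved call 2 and any list 5. The same counts were returned at −log10 q of at least 5, with every list cut to 825 peaks, with a reciprocal overlap of 50%, with summits within 200 bp, at 500 or 5000 bp from a gene end and by peak overlap. The changes of distance could not alter them. Every summit lay within 149 bp of an end, and the only other summit within 5000 bp was at Vps26a, which was already called. At −log10 q of at least 5 the Vps52 peak of normal 2 (4.61) is lost, and that of starved 1 keeps the gene among those called. For the 7 genes with a promoter window, start sites alone gave the same counts as gene ends gave for those 7. They were 2 in both normal lists, 2 in both starved lists and 2 in all 4 lists. The normal lists without a starved call gave 0, and any list 3. Vps35 and Vps51 have no window, so their calls were not checked in this way. Related genes numbered 12 in both normal lists (9 at the stricter q, 11 in shortened lists, 12 to 13 without each list) and 11 in both starved lists (10, 11 and 11 to 14).

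Of 12 places recomputed by −log10 q or pileup, 7 moved by more than 1 SD between the 2 lists of the condition and 5 did not. For Vps26a that SD was 0.603 percentage points in the normal lists and 35.05 in the starved lists. As the 2 lists were counted as 1 sample, it is no measure of replicate spread, and nothing is read from the split. The mean place of Vps26a from the top of the normal lists was 2.49% by fold enrichment, 0.488% by −log10 q and 0.131% by pileup, and in the starved lists 43.5%, 15.9% and 4.12% in the same order of measures. In the normal lists Vps35 stood at 26.3%, 22.9% and 12%, Vps50 at 9.90%, 11.7% and 19.8%, and Vps51 at 2.55%, 2.74% and 3.96%. In the starved lists Vps50 stood at 25.1%, 29.5% and 31.3%. The cause was not tested. Over all protein-coding genes, 481 called in both normal lists became 728, and 882 in any list 1612, at 5000 bp; the 186 normal-only genes became 351 there and 120 in shortened lists. No paired analysis was possible because no comparison between the conditions comes from a test. Outside Vps26a, each call rests on 11 to 24 reads, which limits the precision of their fold enrichments.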

Other observations

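Away from gene ends, 4 of the 84 related genes had peaks inside them, named here after their values were seen. Over all protein-coding genes, the share called in any list was 4.03% at gene ends and 10.4% with peaks inside genes added. Nothing is therefore read from the count of 4. The highest fold enrichments were at Tbc1d5, whose product removes retromer from membranes by acting on RAB7. All 4 lists had a peak inside this gene on chromosome 17, with summits 1863 bp from its nearer end in each normal list and 1945 and 1902 bp in starved 1 and 2. The normal lists gave fold enrichments of 6.90 and 7.53 on 10 and 11 reads, and the starved lists 10.04 and 9.11 on 14 and 12 reads, ranking 351 of 1645, 408 of 2124, 86 of 825 and 123 of 1178. Each normal list had 1 other peak inside the gene, at a different place. The distance, beyond the 1000 bp of a gene end, is why Tbc1d5 was not counted above.

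Both normal lists had a peak inside Cog2, a subunit of the COG tether (fold enrichment 6.12 and 6.99, 3004 and 3005 bp from an end), and the 2 peaks started at the same coordinate. Both starved lists had a weak peak inside Sorcs3, a sorting receptor (6.18 and 3.99 on 6 and 4 reads). Starved 2 alone had a peak inside Exoc6 (3.40 on 3 reads, ranked 1174 of 1178).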
